A study of Homo sapiens with 62 samples.

Results

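The S100 genes of 1q21 described here are S100A2, S100A4, S100A6, S100A8, S100A9, S100A10, S100A11, S100A13, S100A14 and S100A16, found by name in every gene count table. They are 10 of the 58735 genes of the tables with GRCh38 coordinates and 10 of the 48162 genes of the A2780 tables, which carry GRCh37 coordinates. RNA-seq was run on 62 libraries in 16 groups of 5 human cell lines, most of them clones from which an extra copy of 1 chromosome arm had been removed by ReDACT, a set of techniques for eliminating a gained arm. Cells were harvested a day after plating, and polyadenylated RNA was sequenced to 15042068 to 30984036 counted reads per library. Libraries of 1 clone share that clone and are not independent derivations, so p-values measure the spread between these libraries.

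The A2058 melanoma line carries gains of 1q, 7p and 8q, and was profiled as WT (4 libraries), as 1q-loss (2 clones), as 7p-loss (3 clones) and as 8q-loss (2 clones), with 2 libraries per clone. AGS, a gastric cancer line, was profiled as WT (1 library), as TK+ (2 clones) and as 1q-loss (5 clones), with 1 library each. TK+ cells carry an integrant that the labels call TK+ and keep the 1q gain, so they served as controls together with WT. A2780, labelled as ovarian cancer, gave 2 WT, 2 TK+ and 6 1q-loss libraries, the last from 3 clones. MCF10A, a non-malignant breast epithelial line, gave 2 WT libraries and 8 1q-loss libraries from 4 clones, and the same numbers again with hRas, the oncogenic hRASV12 form. The hRas WT cells keep the 1q gain, and no label says that an hRas 1q-loss clone descends from the 1q-loss clone of the same number. HCT116, a colorectal cancer line, gave 2 WT libraries and 2 clones of 8q-loss with 2 libraries each. Each clone that lost an arm also bears a label for the ReDACT version used, CO, NS or TR: the A2058 and HCT116 clones are CO, the A2780 clones NS, the AGS clones NS except clone 11 (CO), and the MCF10A clones TR except clone 4 (CO).

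S100 proteins are small calcium-binding proteins with paired EF-hand motifs that work as dimers, inside the cell by docking onto partner proteins and outside it as signals. S100A8 and S100A9 together form calprotectin, an alarmin of myeloid cells and stressed epithelium that acts through TLR4 and the receptor AGER. S100A10 and S100A11 bind annexins at membranes, S100A4 binds non-muscle myosin and is studied for cell motility, S100A6 binds CACYBP, and S100A13 takes part in the release of FGF1 and IL1A. S100A2 and S100A14 are mostly epithelial genes, and S100A16 is broadly expressed.

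In GRCh38 the members span chr1:151982915-153631360, all on 1q. S100A10 (chr1:151982915-151994390) and S100A11 (chr1:152032506-152047907) lie on one side of the epidermal differentiation complex, the block of skin barrier genes. S100A9 (chr1:153357854-153361027), S100A8 (chr1:153390032-153391188), S100A6 (chr1:153534599-153536244), S100A4 (chr1:153543613-153550136), S100A2 (chr1:153561108-153567890), S100A16 (chr1:153606886-153613145), S100A14 (chr1:153614255-153616986) and S100A13 (chr1:153618787-153631360) lie on the other. S100A9 is on the plus strand and the other 9 are on the minus strand. S100A4 overlaps S100A3 on the same strand and S100A13 overlaps S100A1 on the opposite strand. The strand setting of the counting is not given in the sources used here, so reads of these overlapping pairs could have been assigned either way.

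RefSeq promoter windows of GRCh38.p14, from 250 bases before to 50 bases after an annotated start, were matched for all 10 members, 16 windows in all. The windows below belong to the members whose levels differed most between clones, and no motif searched was found in every member. Capitals mark a TATA box (TATAAA), an AP-1 motif (TGANTCA) or a GC box (GGGCGG, read as CCGCCC on the other strand), each searched on both strands.
S100A8, chr1:153391024-153391323, minus strand: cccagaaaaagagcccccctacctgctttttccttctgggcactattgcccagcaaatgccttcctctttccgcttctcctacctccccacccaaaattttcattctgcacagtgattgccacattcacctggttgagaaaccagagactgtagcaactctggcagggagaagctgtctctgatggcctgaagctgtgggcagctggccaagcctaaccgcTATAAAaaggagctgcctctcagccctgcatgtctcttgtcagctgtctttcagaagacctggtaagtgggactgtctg
S100A9, chr1:153357604-153357903, plus strand: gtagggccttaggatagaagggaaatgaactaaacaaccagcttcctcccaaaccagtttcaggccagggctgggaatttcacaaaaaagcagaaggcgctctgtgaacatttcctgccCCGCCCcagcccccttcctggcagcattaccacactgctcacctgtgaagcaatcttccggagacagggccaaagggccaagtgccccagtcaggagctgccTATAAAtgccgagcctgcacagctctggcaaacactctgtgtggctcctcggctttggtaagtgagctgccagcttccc
S100A4, chr1:153545757-153546056, minus strand: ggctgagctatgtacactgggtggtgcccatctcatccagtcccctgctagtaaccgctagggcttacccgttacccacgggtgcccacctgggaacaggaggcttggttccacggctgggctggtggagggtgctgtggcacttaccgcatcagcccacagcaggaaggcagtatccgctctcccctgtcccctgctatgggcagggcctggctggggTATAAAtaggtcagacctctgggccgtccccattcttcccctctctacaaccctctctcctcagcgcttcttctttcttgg
S100A2, chr1:153565795-153566094, minus strand: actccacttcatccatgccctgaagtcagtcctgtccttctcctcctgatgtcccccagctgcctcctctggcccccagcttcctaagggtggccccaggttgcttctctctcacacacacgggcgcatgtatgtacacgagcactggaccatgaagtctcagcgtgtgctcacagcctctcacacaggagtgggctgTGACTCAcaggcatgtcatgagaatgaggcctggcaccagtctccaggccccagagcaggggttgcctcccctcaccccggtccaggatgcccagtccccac
S100A14, chr1:153616276-153616575, minus strand: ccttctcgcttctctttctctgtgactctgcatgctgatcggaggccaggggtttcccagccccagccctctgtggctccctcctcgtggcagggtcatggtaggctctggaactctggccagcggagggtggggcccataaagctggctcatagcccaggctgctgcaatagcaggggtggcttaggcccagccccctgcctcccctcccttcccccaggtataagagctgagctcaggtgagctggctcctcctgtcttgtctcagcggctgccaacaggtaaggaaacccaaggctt
The TATA box starts at base 222 of both the S100A8 and the S100A9 window and at base 220 of the S100A4 window. A TATA box was found in 5 of the members' 16 windows (31.2%; S100A4, S100A8, S100A9 and S100A13), against 11.5% of all 35116 RefSeq windows. The AP-1 motif was found in 1 window (6.25%), that of S100A2 at base 199, against 7.71% of windows. The GC box was found in 6 windows (37.5%), against 45.0% of windows. Windows of 1 gene can overlap. None of these letters stands in the S100A14 window, and a match or its absence says nothing of binding.

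Levels of the members before any arm loss set the lines apart. CPM, the read count scaled to library size, was divided by gene length (CPM per kb) so that genes could be compared, and was taken over the WT and, in AGS and A2780, TK+ libraries without hRas. No label gives a 1q gain for HCT116, and the 7p-loss and 8q-loss clones were left out. The 10 members summed to 5425 CPM in MCF10A, 4941 in AGS, 1567 in HCT116, 877.6 in A2058 and 132.1 in A2780. A mean of at least 1 CPM was reached by 9 members in MCF10A and AGS, 8 in HCT116, 7 in A2058 and 4 in A2780. The highest member was S100A2 in MCF10A (1017 CPM per kb), S100A11 in AGS (2124) and A2058 (381), S100A6 in HCT116 (899) and S100A4 in A2780 (97.8).

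**Figure D1:**
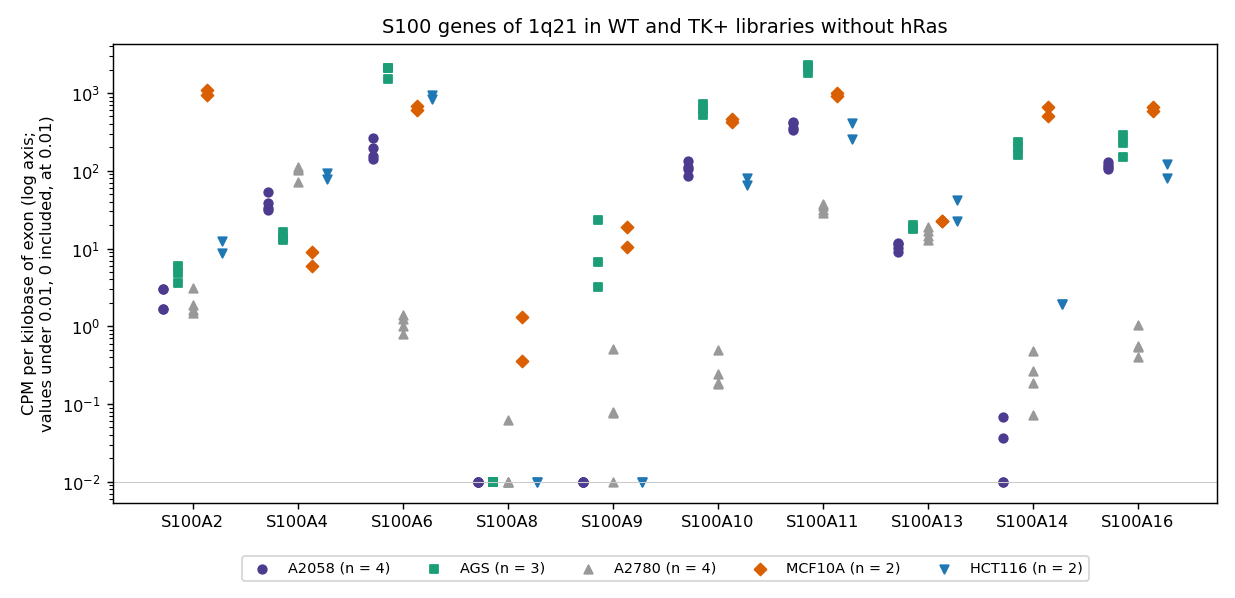
Level of each of the 10 genes in the WT and TK+ libraries without hRas, by cell line, in CPM per kb on a log axis; points are libraries. S100A2, S100A14 and S100A16 are highest in MCF10A, and A2780 lies lowest for S100A6, S100A10, S100A11 and S100A16.

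Among the annexin partners, S100A11 ran from 2124 CPM per kb in AGS through 960 in MCF10A, 381 in A2058 and 333 in HCT116 to 33.2 in A2780, and only A2058 and HCT116 overlapped in that order. S100A10 followed the order AGS (619), MCF10A (438), A2058 (109), HCT116 (74.0) and A2780 (0.278), with no overlap between neighbouring lines. S100A6 was at 1897 CPM per kb in AGS and 1.12 in A2780, with HCT116 (899), MCF10A (644) and A2058 (190) between. S100A4 had nearly the opposite order, with A2780 (97.8) and HCT116 (86.9) highest and overlapping, then A2058 (39.1), AGS (14.1) and MCF10A (7.43).

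The epithelial members were concentrated in MCF10A. S100A2 was at 1017 CPM per kb there and at 10.7 in HCT116, 4.80 in AGS, 2.35 in A2058 and 2.02 in A2780, of which only the last pair overlapped. S100A14 was at 584.5 in MCF10A, 196.8 in AGS, 1.93 in HCT116, 0.252 in A2780 and 0.0260 in A2058, and S100A16 at 625, 222, 102, 0.631 and 117 in the same lines. S100A13 varied least, from 10.5 CPM per kb in A2058 to 31.9 in HCT116. The alarmin S100A9 reached 14.6 CPM per kb in MCF10A and 11.1 in AGS, whose libraries overlapped, and was at 0 counts in the A2058 and HCT116 WT libraries. S100A8 was at 0.832 CPM per kb in MCF10A and 0.0158 in A2780. It was at 0 counts in all AGS and HCT116 libraries, which allows up to 3 counts per library.

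Cell type markers went against the label in A2780 and stood apart from the controls in the A2058 1q-loss clones and in clone 2 of the MCF10A hRas 1q-loss cells. The ovarian epithelium list (PAX8, WT1, MUC16, EMX2) summed to 0 to 1.27 CPM over the A2780 libraries. The melanocyte list (SOX10, MITF, PMEL, MLANA, TYR) summed to 1656 to 2687 CPM in A2058 WT and to 43.8 to 134 in A2058 1q-loss, with no marker at 0. The basal breast epithelium list summed to 943.5 and 906 CPM in that MCF10A clone and to 5355 to 5584 CPM in hRas WT. In bulk libraries fewer cells of a type and less RNA per cell cannot be told apart.

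Removal of the 1q gain lowered the arm as a whole, and the S100 genes were read against that shift. The median log2 fold change of the tested 1q genes was -0.46 in A2058, -0.54 in AGS, -0.45 in A2780, -0.49 in MCF10A and -0.36 in hRas MCF10A, or 72.9%, 68.9%, 73.4%, 71.0% and 77.7% of control. A member that followed its arm would move by that amount. The median over the tested members was -0.25 over 8 members in A2058, -0.35 over 9 in AGS, 0.08 over 6 in A2780, -0.22 over 10 in MCF10A and -0.05 over 10 in hRas MCF10A, each above the arm. In A2058 this rested on S100A9, whose controls were all at 0, and the median of the other 7 was -0.46. The 213 to 250 tested genes of the surrounding region of 1q, members aside, had medians of -0.55 in A2058, -0.50 in AGS, -0.44 in A2780, -0.40 in MCF10A and -0.19 in hRas MCF10A, above the arm in all but A2058 and farthest above it in hRas MCF10A. With these regional medians in place of the arm's, the counts of members that differed, given with each line, were the same. The remaining members (S100A8 and S100A14 in A2058, S100A8 in AGS, S100A8, S100A9, S100A10 and S100A14 in A2780) had too few reads to be tested.

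S100A11 lay above the arm in all 18 1q-loss clones, and S100A10 in all 15 clones of the comparisons that tested it. In hRas MCF10A the lowest clone of S100A11, at -0.28, lay below the regional median of -0.19. Across the 18 clones the log2 difference of S100A11 from its controls lay between -0.45 and 0.16, with a median of -0.01. That spread of 0.61 was smaller than the spread of most 1q genes: 12.8% of the 477 1q genes tested in all comparisons spread less, and their median spread was 1.17. S100A2 was above the arm in 16 of 18 clones, S100A6 and S100A16 in 14 of 18, S100A13 in 12 of 18, S100A4 in 11 of 18 and S100A14 in 8 of 13.

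The alarmin S100A9 was above the arm in 5 of 15 clones, and S100A8 in 2 of the 8 MCF10A clones, the only ones where it was tested. S100A8 also lay above the arm in both A2058 clones, whose WT libraries had no read of it. S100A16 was below its controls in 17 of 18 clones while lying above the arm in 14. For comparison, the 477 1q genes lay above their arm in a median of 8 of 18 clones, and 4 of them (0.839%) did so in all 18. S100A4 had the widest spread of the members tested in all 5 comparisons, 5.89 log2 units, and 98.5% of the 1q genes spread less.

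**Figure D2:**
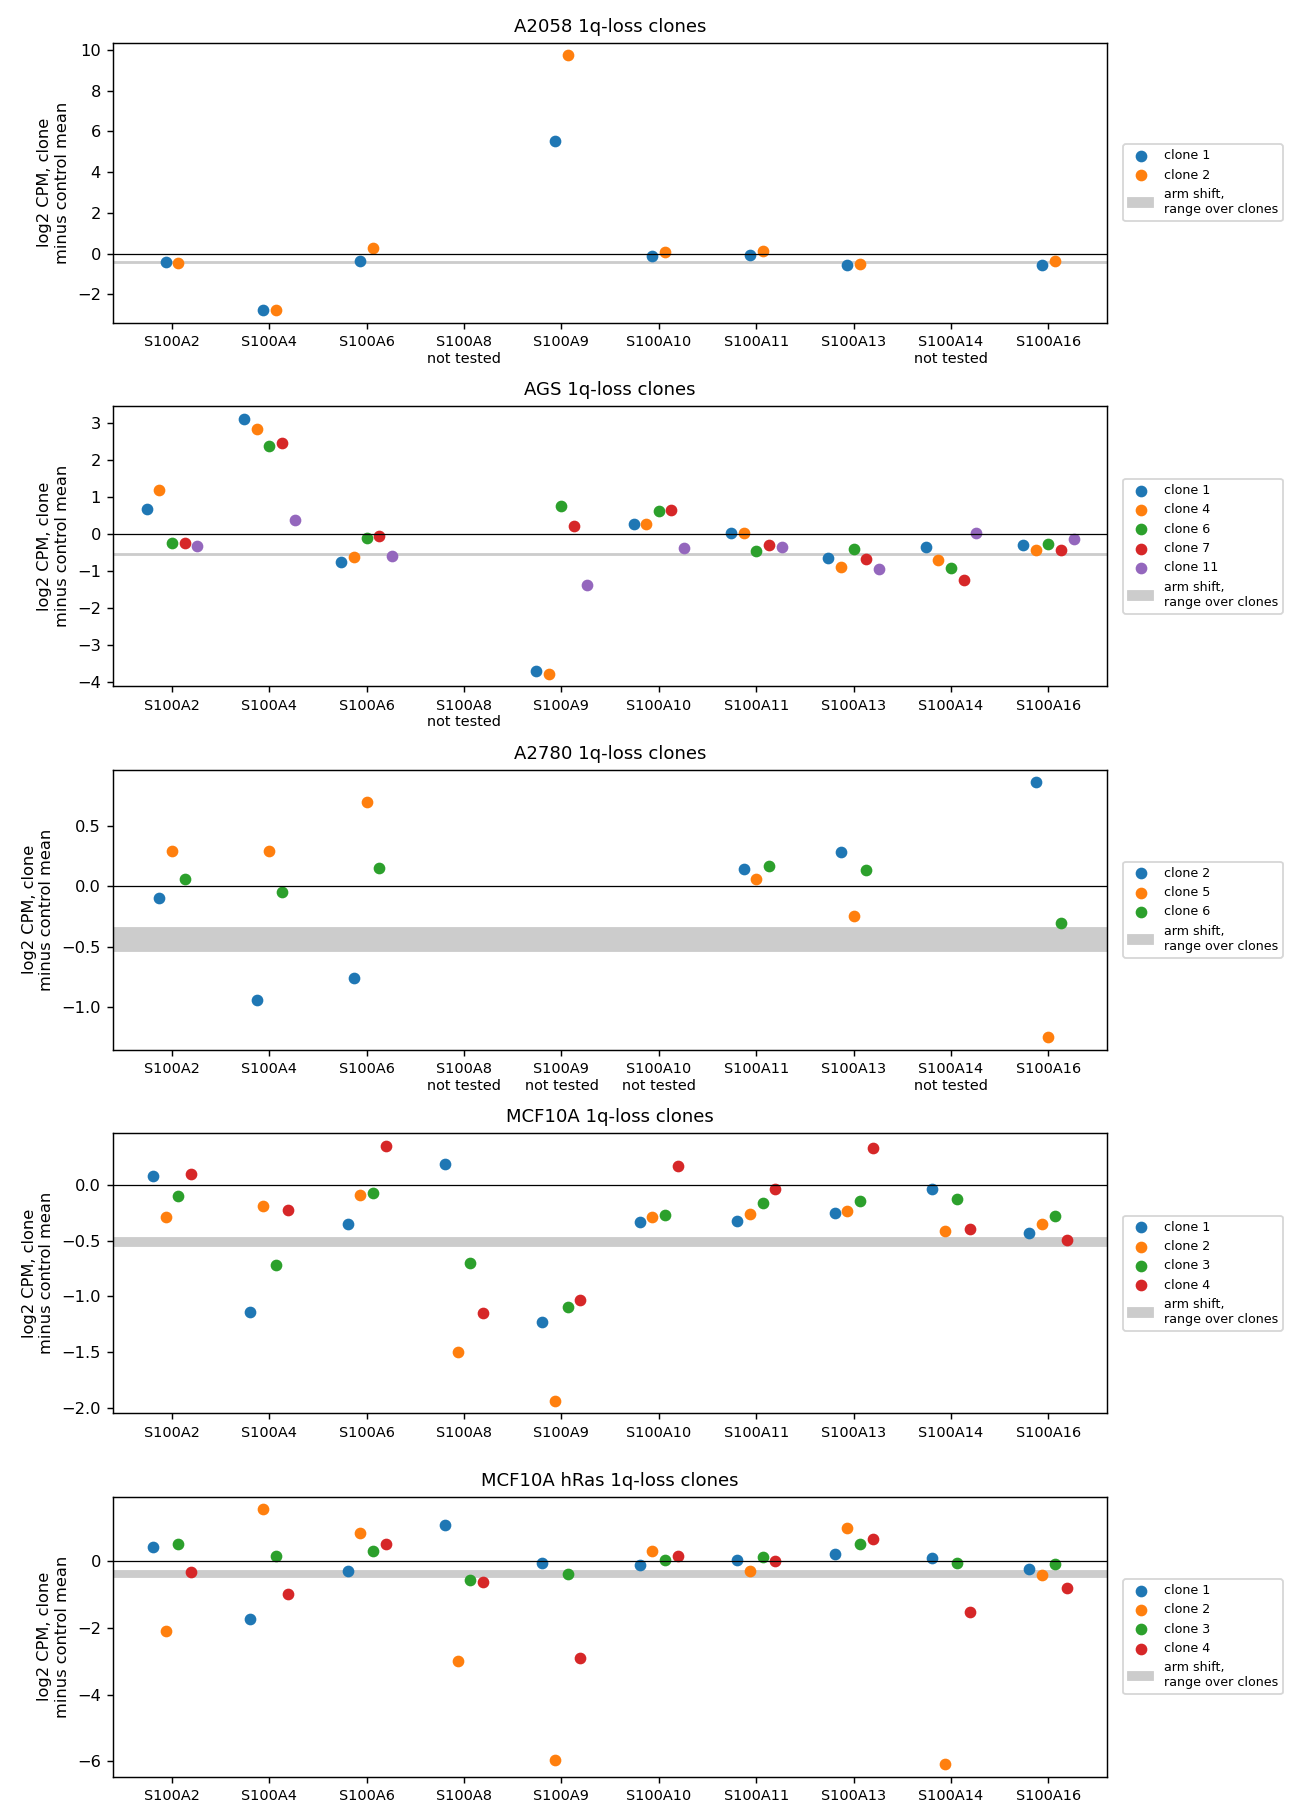
Log2 difference of each tested member from its controls, for each 1q-loss clone by comparison. The line at 0 is the control mean, and the grey band is the range of the arm shift over the clones. The 18 points of S100A11 and 15 of S100A10 lie on both sides of 0, each above the arm shift of its own clone. S100A4, S100A9 and S100A14 reach far to both sides of 0 or below.

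In A2058 the loss of 1q went with opposite differences in the alarmins and in the motility gene S100A4. S100A9 was read in the 1q-loss cells and not in WT, S100A4 fell, S100A13 and S100A16 fell by about as much as the arm, and S100A10 and S100A11 overlapped WT and lay above the arm. Of 8 members tested, 4 passed the edgeR quasi-likelihood test (1 higher, 3 lower), in a comparison that called 49.6% of all genes and 69.6% of 1q genes, so the count of members is not above the background. Measured against the arm, 4 members differed from it (S100A4, S100A9, S100A10 and S100A11), where 52% of all 1q genes did. S100A9 entered these counts only through the 1q-loss libraries, where it is high, and its p is not read; of the other 7 members 3 were called and 3 differed from the arm.

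S100A9 had 0 reads in all 4 A2058 WT libraries and 2.05 and 7.88 CPM in clone 1 and 61.5 and 94.1 CPM in clone 2 of the 1q-loss cells. Its partner S100A8, too low in clone 1 to be tested, was also at 0 in WT and at 0.286 and 1.06 CPM in clone 1 and 11.2 and 20.5 CPM in clone 2. Both alarmins were thus present in every 1q-loss library and absent from every WT library, and clone 2 held far more than clone 1. Against a floor of 3 counts per WT library S100A9 was at least 299.9-fold higher over the 4 libraries and S100A8 at least 60.0-fold higher. By clone these bounds were 36.0-fold and 564-fold for S100A9 and 4.90-fold and 115-fold for S100A8.

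The difference between the clones passed for S100A9 (adjusted p = 0.00358) and S100A6 (0.00584) in the between-clone edgeR test, where 6.13% of all genes passed. S100A8 had enough reads for that test through clone 2 alone, and its p is not read. In the 7p-loss and 8q-loss clones of the same line S100A8 had no read, and S100A9 had none but for 0.0449 CPM in 1 library of 8q-loss clone 1.

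Leukocyte markers, the usual company of S100A8 and S100A9 in tissue, were close to 0 in the A2058 1q-loss libraries. The list (PTPRC, CD14, ITGAM, CSF1R, SPI1, LYZ) summed to 0.822 to 1.71 CPM in WT and to 1.84 to 4.20 CPM in 1q-loss, and none of the 6 was at 0 in every library. The pan-leukocyte gene PTPRC was at 0.0239 CPM and CSF1R at 2.13 CPM in the 1q-loss cells. The fall of the melanocyte list to 43.8 to 134 CPM stood in the same libraries, as did simple epithelium markers (KRT8, KRT18, KRT19), which summed to 80.1 to 106 CPM in WT and 166 to 212 CPM in 1q-loss. The basal epithelium list (KRT5, KRT14, KRT17, TP63, EGFR) summed to 0.822 to 2.75 CPM in WT and 51.4 to 266 CPM in 1q-loss, almost all of it KRT17 (50.7 to 255 CPM in 1q-loss) with TP63 at 0.242 to 15.8 CPM. Their part in the S100 changes was not tested.

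S100A4 was at 34.4, 32.3, 54.5 and 39.2 CPM in A2058 WT and at 6.25 and 5.18 CPM in clone 1 and 6.34 and 5.14 CPM in clone 2 of 1q-loss. All 4 loss libraries lay below all WT libraries, and the clones were alike. The log2 fold change was -2.81 (SE 0.175, adjusted p = 7.39e-07), and -2.36 relative to the arm (adjusted p = 2.71e-06, edgeR). S100A3, which overlaps S100A4, was higher in the same cells, by 1.38 log2 units (adjusted p = 0.012, edgeR), with 1.09 CPM in WT and 2.86 CPM in 1q-loss.

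S100A4 also varied among the other clones of A2058, which keep 1q. It was at 4.85 and 1.75 CPM in 7p-loss clone 1, 107 and 68.9 CPM in clone 2 and 29.3 and 19.5 CPM in clone 3. The 8q-loss clones held 11.01 and 13.2 CPM (clone 1) and 42.0 and 28.2 CPM (clone 2). Low S100A4 was thus also measured in a clone not targeted on 1q, 7p-loss clone 1, whose libraries lay below those of both 1q-loss clones. That 7p-loss clone also had the lowest simple epithelium sum of the line, 42.1 and 42.4 CPM, and its melanocyte sum was 1595 and 2869 CPM; their part was not tested.

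S100A13 was at 20.1, 22.2, 25.9 and 25.3 CPM in WT and at 14.6 to 17.7 CPM in 1q-loss, with no overlap. On the log2 scale it fell by 0.54 (SE 0.110, edgeR adjusted p = 0.00223). S100A16 was at 179 to 220 CPM in WT and 130 to 159 CPM in 1q-loss, also without overlap, and fell by 0.47 log2 units (SE 0.0808, adjusted p = 0.000745, edgeR). Both moved with the arm, at -0.08 and -0.01 relative to it.

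S100A11 was at 230, 241, 278 and 287 CPM in WT and at 243, 257, 281 and 293 CPM in 1q-loss, and the groups overlapped throughout. Its log2 fold change was 0.05 (SE 0.0882, adjusted p = 0.671), which was 0.50 above the arm (adjusted p = 8e-04, edgeR). S100A10 was at -0.02 against WT and 0.43 against the arm (adjusted p = 0.0114, edgeR). S100A6 at -0.04 and S100A2 at -0.46 (adjusted p = 0.883 and 0.168, edgeR) passed neither test. Leaving out single libraries or clones moved the count of members called between 4 and 5 and the count unlike the arm between 3 and 6.

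**Figure D3:**
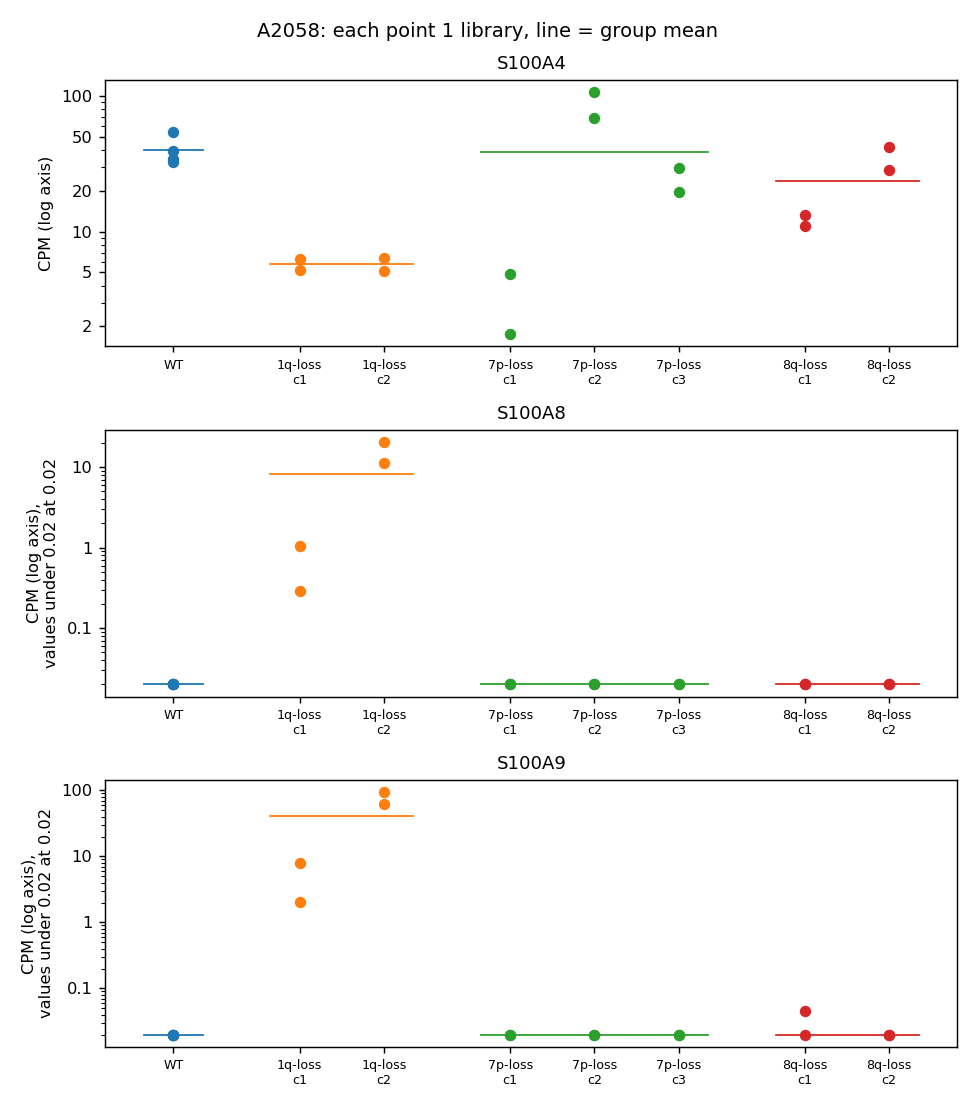
CPM of S100 genes in each A2058 library on a log axis, by group and clone. S100A8 and S100A9 stand above 0 in the 1q-loss libraries, with clone 2 above clone 1, and S100A4 is low in both 1q-loss clones and in 7p-loss clone 1.

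In AGS the direction of S100A4 was the opposite. S100A4 rose in 1q-loss clones while S100A13 fell with the arm. These were the 2 members called of 9 tested (1 higher, 1 lower, edgeR), against 7.55% of all genes and 33.7% of 1q genes. S100A4 was the only member unlike the arm, where 6.22% of the 1q genes were.

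S100A4 was at 13.1 CPM in AGS WT and 16.5 and 13.9 CPM in the TK+ clones. In 1q-loss it was at 126 (clone 1), 105 (clone 4), 76.6 (clone 6), 80.5 (clone 7) and 18.8 CPM (clone 11). All 5 clones lay above the controls, but clone 11, the CO clone, did so by little, and the other 4 lay far above it. The log2 fold change was 2.50 (SE 0.512, adjusted p = 0.0245), or 3.03 relative to the arm (adjusted p = 0.0132, edgeR). With 3 control libraries the call depended on each of them: the edgeR adjusted p was 0.0819 without TK+ clone 1, 0.111 without TK+ clone 2 and 0.105 without WT. The overlapping S100A3 had a log2 fold change of 2.50 as well (adjusted p = 0.0751, edgeR).

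S100A13 was at 44.2, 41.1 and 39.8 CPM in the AGS controls and at 21.7 to 31.8 CPM in the 5 clones, without overlap. It fell by 0.69 log2 units (edgeR adjusted p = 0.0234, SE 0.139) and was at -0.15 relative to the arm. Its edgeR adjusted p was 0.0746, 0.0869 and 0.109 without TK+ clone 1, TK+ clone 2 and WT, and 0.0501 without clone 7. The other members did not pass: S100A2 at 0.34, S100A6 at -0.39, S100A9 at -1.03, S100A10 at 0.33, S100A11 at -0.19, S100A14 at -0.57 and S100A16 at -0.35.

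The NS clones of AGS fell into like pairs for several members. S100A2 was at 11.9 and 17.2 CPM in clones 1 and 4, above all other AGS libraries, and at 6.21 and 6.26 CPM in clones 6 and 7. S100A9 was at 0.242 and 0.228 CPM in clones 1 and 4 and at 7.93 and 5.47 CPM in clones 6 and 7, with 1.84 to 13.6 CPM in the controls. S100A6 was at 1094 and 1190 CPM in clones 1 and 4 and 1710 and 1775 CPM in clones 6 and 7, against 1482 to 2026 CPM in controls. S100A10 was at 1157 and 1151 against 1471 and 1490 CPM. With 1 library per clone these differences could not be tested.

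S100A14 ranged from 106 (clone 7) to 255 CPM (clone 11) in AGS 1q-loss and from 204 to 299 CPM in the controls, so the groups overlapped. Clone 11 had the highest S100A14 and the lowest S100A4, S100A10 and S100A13 of the 5 clones. Markers of gastrointestinal epithelium summed to 860 to 1163 CPM in the 1q-loss clones and to 1018 to 1120 CPM in the controls. Simple epithelium markers (KRT8, KRT18, KRT19) did not overlap between the groups, at 6068 to 8655 CPM in 1q-loss and 3611 to 5021 CPM in the controls, lowest of the 5 clones in clone 11 (6068 CPM), and their part in the S100A4 values was not tested. In the leukocyte list LYZ, which stomach epithelium also makes, was at 20.9 to 120 CPM in 1q-loss, 83.3 and 1944 CPM in TK+ and 477 CPM in WT, and PTPRC at 0 to 0.0592 CPM throughout.

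**Figure D4:**
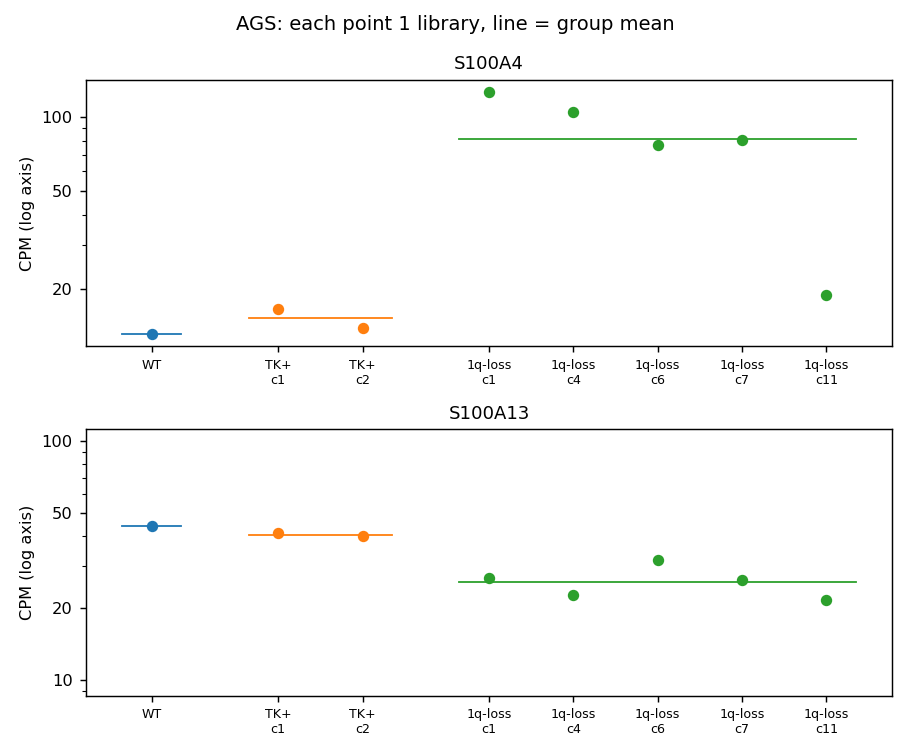
CPM of S100 genes in each AGS library on a log axis, 1 library per clone. S100A4 is higher in 4 of the 1q-loss clones than in clone 11 and the 3 controls, and S100A13 is lower in every 1q-loss clone than in the controls.

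In A2780, where most S100 genes are close to silent, edgeR called 0 of the 6 members tested, none had an unadjusted p under 0.05, and DESeq2 called 0, in a comparison that called 11.8% of all genes and 51.8% of 1q genes. None differed from the arm either, where 11.7% of 1q genes did, although S100A11 and S100A13 had an unadjusted p under 0.05 there, as did 28% of 1q genes. The log2 fold changes were 0.09 for S100A2, -0.13 for S100A4, 0.15 for S100A6, 0.19 for S100A11, 0.08 for S100A13 and -0.03 for S100A16.

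All 6 estimates lay above the arm in A2780, with a wide spread between libraries. S100A11 was at 17.0 to 22.5 CPM in the 4 control libraries, and WT and TK+ overlapped. In the 1q-loss clones it was at 29.6 and 15.8 (clone 2), 33.0 and 12.6 (clone 5) and 25.3 and 19.0 CPM (clone 6), so the libraries of 1 clone differed more than the groups. Relative to the arm it was at 0.64 (adjusted p = 0.113, edgeR). S100A13 was at 31.4, 36.7, 41.3 and 28.01 CPM in controls and 21.4 to 49.2 CPM in 1q-loss, at 0.53 relative to the arm (adjusted p = 0.0986, edgeR). Without the replicate 2 library of clone 5, 2 members differed from the arm.

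Clones of A2780 differed from each other in S100A4, in a between-clone test that 20.6% of all genes passed. S100A4 was at 46.2 and 31.0 CPM in clone 2, 124 and 63.6 CPM in clone 5 and 77.0 and 64.3 CPM in clone 6 (adjusted p = 0.0186, edgeR), against 53.9 to 85.2 CPM in controls. S100A16, at 1.20 and 1.43 CPM in clone 2, 0.320 and 0.169 CPM in clone 5 and 0.840 and 0.330 CPM in clone 6, passed as well, but at few reads and with most of them in clone 2, so its p is not read.

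The A2780 controls themselves were unlike: 11.2% of all genes differed between TK+ and WT, and the simple epithelium list (KRT8, KRT18, KRT19) summed to 171 and 180 CPM in WT and 5.11 and 7.11 CPM in TK+, with 6.81 to 84.7 CPM in 1q-loss. Of 6 members tested between TK+ and WT edgeR called 0, none had an unadjusted p under 0.05, and DESeq2 called 0. Among other S100 genes S100A3 was lower in TK+, at -2.02 on the log2 scale (adjusted p = 8.41e-05, edgeR), at 3.89 CPM against 15.9 CPM in WT.

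In MCF10A the loss of 1q left every member below WT in its estimate and only S100A9 past the test. All 10 members were tested and 1 was called lower, against 2.04% of all genes and 34.6% of 1q genes. None differed from the arm by edgeR, and 0% of the 710 tested 1q genes did, though 101 of these genes (14.2%), among them 5 members, had an unadjusted p under 0.05 in that test (S100A2, S100A6, S100A9, S100A11 and S100A13). Members other than S100A9 had log2 fold changes of -0.04 (S100A2), -0.54 (S100A4), -0.01 (S100A6), -0.84 (S100A8), -0.17 (S100A10), -0.19 (S100A11), -0.05 (S100A13), -0.24 (S100A14) and -0.39 (S100A16).

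S100A9 was at 10.8 and 6.04 CPM in MCF10A WT, and the 8 1q-loss libraries had a lowest value of 1.67, a median of 3.73 and a highest of 4.81 CPM. The groups did not overlap, and the log2 fold change was -1.35 (SE 0.312, adjusted p = 0.0419, edgeR). Leaving out either WT library or some of the clones ended the call: the adjusted p was 0.837 without WT replicate 1, 0.0918 without WT replicate 2, 0.0544 without clone 2, 0.0853 without clone 3 and 0.0817 with the libraries of a clone summed. Single libraries whose absence ended it were clone 1 replicate 2 (0.0642), clone 2 replicate 2 (0.0706), clone 3 replicates 1 and 2 (0.0556 and 0.0688) and clone 4 replicate 2 (0.0517), all by edgeR. S100A8 was at 1.32 and 0.358 CPM in WT and 0.155 to 1.40 CPM in 1q-loss, so the groups overlapped.

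S100A16 was at 1134 and 993 CPM in MCF10A WT and 691 to 903 CPM in 1q-loss, without overlap. Its edgeR test just missed (log2 fold change -0.39, SE 0.0954, adjusted p = 0.058), and relative to the arm it was at 0.11. DESeq2 called it (adjusted p = 0.00676), in a fit that called 567 of 15666 genes. S100A11 was at 674 and 632 CPM in WT, and at a lowest of 499, a median of 575 and a highest of 646 CPM in 1q-loss, with overlap.

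Clone 4, the CO clone of MCF10A, was high for several members. S100A6 was at 842 and 752 CPM there and at 447 to 687 CPM in clones 1 to 3, against 657 and 594 CPM in WT. S100A13 was at 67.1 and 60.1 CPM in clone 4 and 39.7 to 49.8 CPM in the other clones, and S100A10 at 807 and 712 CPM against 508 to 601 CPM. These 3 were the members that differed between the MCF10A clones (adjusted p = 0.0256, 0.0191 and 0.0226, edgeR), 3 of 10 where 8.51% of all genes and 10.2% of 1q genes did. The basal epithelium list summed to 10700 and 8235 CPM in clone 4, 4801 to 7606 CPM in clones 1 to 3 and 7293 and 6179 CPM in WT. Its keratin gene KRT14 was at 3.71 to 7.03 CPM in clones 3 and 4, at 55.4 to 124 CPM in clones 1 and 2 and at 74.1 and 65.1 CPM in WT (between clones adjusted p = 1.9e-06, edgeR). Simple epithelium markers summed to 624 to 1071 CPM in 1q-loss, lowest in clone 4, and to 530 and 492 CPM in WT. The part of these markers in the S100 values was not tested.

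The hRas 1q-loss clones of MCF10A differed widely from each other. Against hRas WT edgeR called 0 of 10 members, 1 (S100A13) had an unadjusted p under 0.05 (14.3% of all genes did), DESeq2 called 0, and 0.214% of all genes and 3.47% of 1q genes were called. None was unlike the arm, where 0.139% of 1q genes were, and 4 members had an unadjusted p under 0.05 in that test, as did 16.2% of 1q genes. Between the 4 clones all members other than S100A8 differed, in a test that called 65.3% of all genes and 71.5% of 1q genes, so most genes behaved likewise. S100A8 passed as well, but with few reads outside clone 1, so its p is not read.

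HRAS itself followed its label in every library. It was at 85.9 and 87.9 CPM in MCF10A WT, 173 and 177 CPM in hRas WT, and between 154 and 409 CPM in the hRas 1q-loss libraries, highest in clone 2 (409 and 364 CPM). The log2 fold change of HRAS with hRas was 1.012 (SE 0.0734, adjusted p = 1.63e-05) in WT and 1.44 (SE 0.199, adjusted p = 0.00231) in 1q-loss cells, by edgeR.

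Clone 2 stood apart in the epithelial members and the alarmins. S100A14 was at 700.3 and 639.4 CPM in hRas WT, 698 and 745 CPM in clone 1, 604 and 699.8 CPM in clone 3, 228 and 243 CPM in clone 4 and 9.74 and 9.87 CPM in clone 2. Clones 1 and 3 were at the control's level, clone 4 was 2.84-fold lower and clone 2 was 68.3-fold lower (between clones adjusted p = 2.88e-27, edgeR). S100A2 was at 1383 and 976 CPM in hRas WT and 261 and 284 CPM in clone 2, 4.32-fold lower, with 850 to 2039 CPM in the other clones (between clones adjusted p = 1.19e-16, edgeR).

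S100A9 was at 10.3 and 11.9 CPM in hRas WT, 9.62 and 11.8 CPM in clone 1, 8.23 and 8.63 CPM in clone 3, 0.845 and 2.30 CPM in clone 4 and 0.158 and 0.0396 CPM in clone 2. Clone 2 held 5 counts of S100A9 against 480 in hRas WT, a ratio of 113 (exact 95% interval 48.2 to 350, counting error only). S100A8 had 0 counts in both clone 2 libraries and 29 in hRas WT, at least 5.66-fold lower against 3 counts per library. The clones thus had the same order for S100A14, S100A9 and S100A2 at the low end, with clone 2 lowest and clone 4 next.

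Clone 2 was also the highest for S100A4, S100A6, S100A10 and S100A13. S100A4 was at 12.7 and 10.6 CPM in hRas WT and 36.1 and 32.7 CPM in clone 2, 2.95-fold higher, while clone 1 was at 3.18 and 3.76 CPM, clone 3 at 12.3 and 13.6 CPM and clone 4 at 4.44 and 7.60 CPM (between clones adjusted p = 5.86e-15, edgeR). S100A6 was at 797 and 630 CPM in hRas WT and 1313 and 1232 CPM in clone 2, 1.78-fold higher, with 579 to 1063 CPM in the others. S100A13 was at 48.0 and 38.7 CPM in hRas WT and 84.7 and 88.9 CPM in clone 2, 2.00-fold higher, and 49.1 to 69.7 CPM in the other clones, so all 8 loss libraries lay above the control.

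Several epithelial markers were lower in the same clone, but KRT14 of the basal list was not. CDH1, the epithelial cadherin, was at 3.28 and 2.62 CPM in clone 2 against 214 and 219 CPM in hRas WT, TP63 at 0.513 and 0.634 CPM against 56.8 and 60.4 CPM, and KRT17 at 84.8 and 89.5 CPM against 1358 and 1492 CPM. KRT14 was at 65.8 and 56.8 CPM in clone 2 against 52.2 and 55.4 CPM in hRas WT. The whole basal list summed to 906 to 7767 CPM over the hRas 1q-loss libraries and 5355 to 5584 CPM in hRas WT, with none of its 5 genes at 0. Simple epithelium markers summed to 420 and 409 CPM in clone 2, 466 to 1059 CPM in the other clones and 511 and 522 CPM in hRas WT. In clone 4, which had the second lowest S100A14, CDH1 was at 157 and 156 CPM and TP63 at 39.1 and 42.7 CPM. The part of these markers and of the higher HRAS level of clone 2 in the S100 values was not tested.

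**Figure D5:**
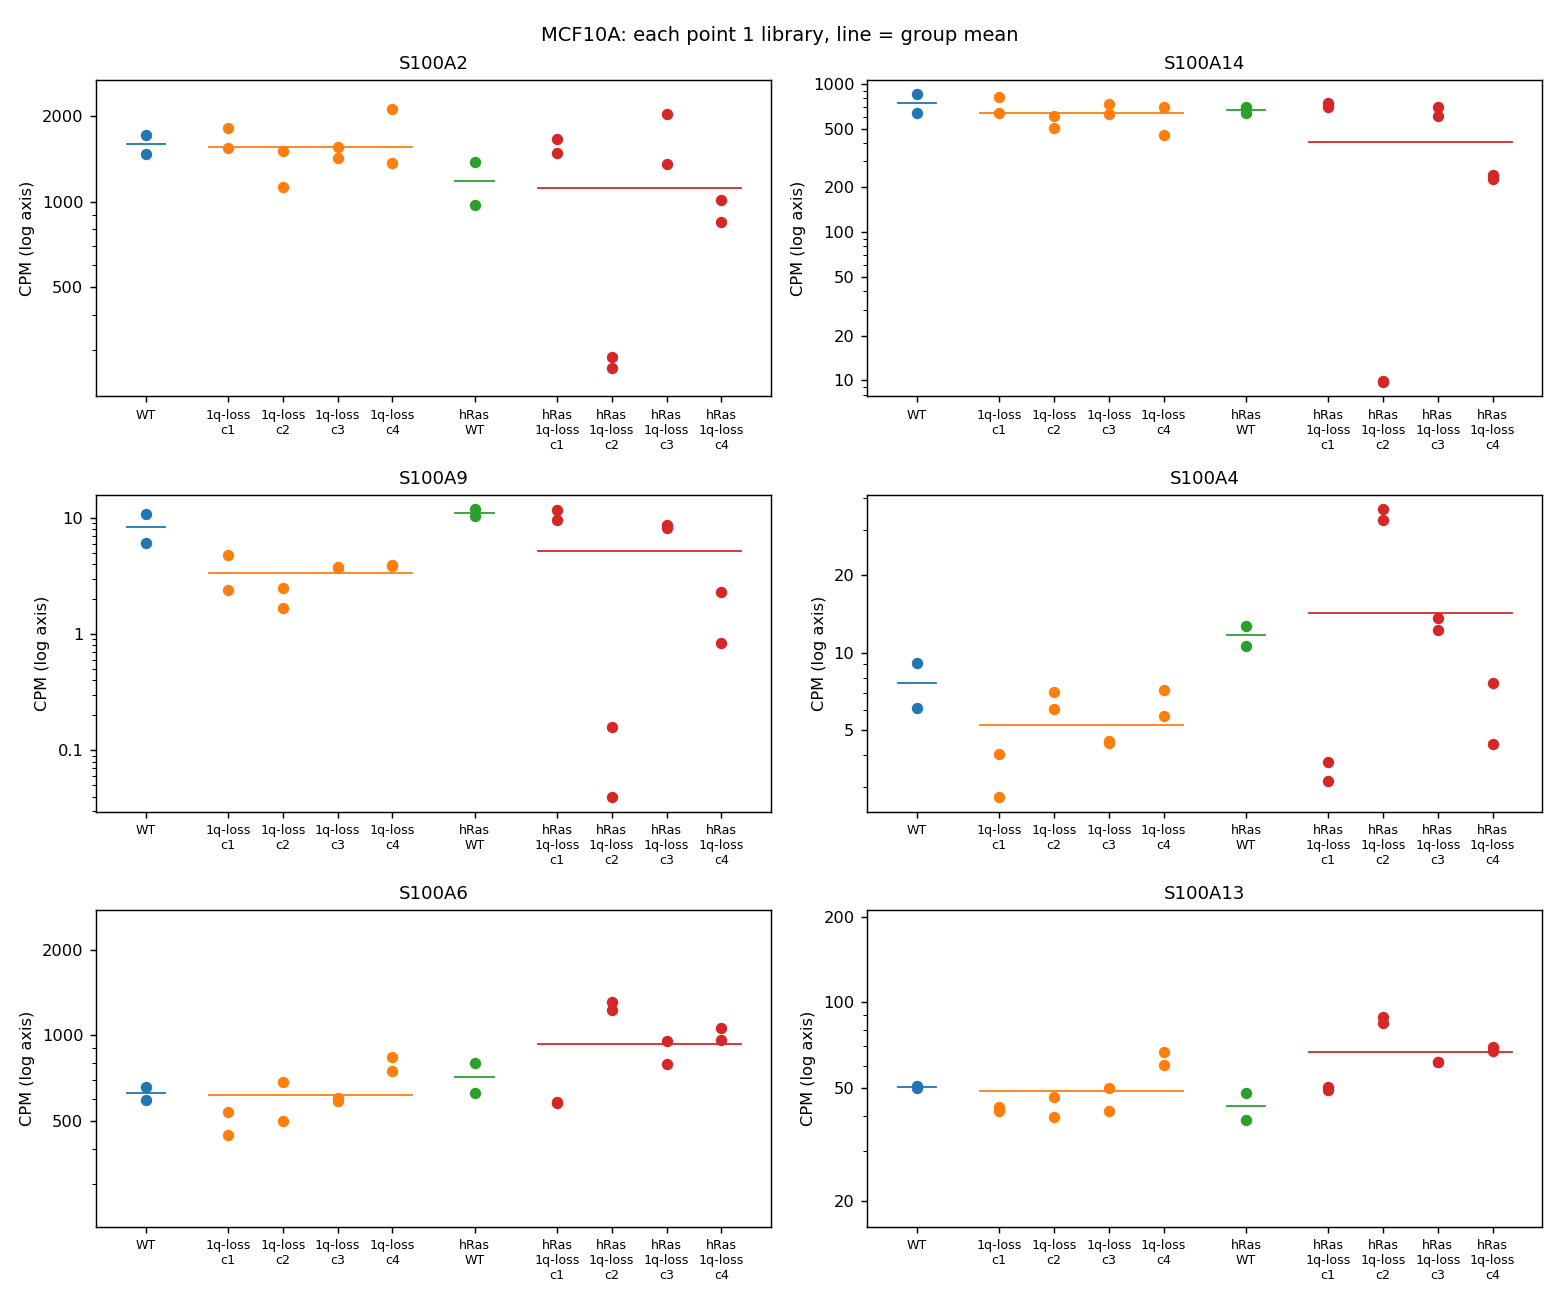
CPM of S100 genes in each MCF10A library on a log axis, by group and clone, without and with hRas. Clone 2 of the hRas 1q-loss cells is lowest for S100A2, S100A9 and S100A14 and highest for S100A4 and S100A6.

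In the pooled hRas 1q-loss comparison the estimates were -0.07 for S100A2, 0.29 for S100A4, 0.40 for S100A6, -0.26 for S100A8, -1.11 for S100A9, 0.10 for S100A10, -0.02 for S100A11, 0.62 for S100A13 (adjusted p = 0.291, edgeR), -0.73 for S100A14 and -0.35 for S100A16. S100A11 had the smallest standard error of the 10 (0.131). Leaving clone 2 out turned S100A2 to 0.25 and S100A4 to -0.63, neither past the test.

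The effect of hRas was compared separately in WT and in 1q-loss cells. In WT edgeR called 0 of 10 members, 2 had an unadjusted p under 0.05 (14.2% of all genes did), DESeq2 called 0, and 1.62% of all genes were called. S100A2 was at 1721 and 1466 CPM without hRas and 1383 and 976 CPM with it (log2 fold change -0.43, SE 0.134, adjusted p = 0.154). S100A4 was at 6.11 and 9.12 CPM without and 12.7 and 10.6 CPM with hRas (0.63, SE 0.206, adjusted p = 0.183). Neither pair of groups overlapped, with 2 libraries in each group. Without a filter on low counts both genes passed (adjusted p = 7.89e-07 and 0.0343, edgeR), in a fit that called 633 of 25466 genes. The other estimates were 0.19 (S100A6), -0.36 (S100A8), 0.39 (S100A9), 0.02 (S100A10), -0.07 (S100A11), -0.21 (S100A13), -0.16 (S100A14) and 0.02 (S100A16).

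In 1q-loss cells edgeR called 0 of 9 members with hRas, where it called 1.2% of all genes. An unadjusted p under 0.05 was reached by 4 members and 18.1% of all genes, and DESeq2 called 3 members (S100A4, S100A6 and S100A13) and 5.62% of all genes. The estimates were 1.46 for S100A4 (SE 0.464, adjusted p = 0.113), 0.60 for S100A6 (SE 0.176, adjusted p = 0.088), 0.46 for S100A13 (SE 0.140, adjusted p = 0.0954) and 0.29 for S100A10 (SE 0.101, adjusted p = 0.144). Without hRas clone 1 all 4 passed in edgeR, with S100A6 at 0.77 (adjusted p = 0.00536), in a fit that called 10.8% of all genes. Without hRas clone 2 none of the 4 passed, and S100A4 was at 0.53 and S100A6 at 0.42. Without clone 4 of the cells that lack hRas, S100A10 and S100A13 passed (adjusted p = 0.0267 and 0.0378, edgeR). That fit called 165 of 14605 genes. S100A2 was at -0.48, S100A9 at 0.63, S100A11 at 0.10, S100A14 at -0.65 and S100A16 at 0.06, and S100A8 was not tested.

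Whether hRas altered the effect of 1q loss was tested as an interaction over all 20 MCF10A libraries. EdgeR called 0 of 10 members and 0% of all genes, 1 member (S100A13, 0.67, SE 0.296) and 366 genes (2.22%) had an unadjusted p under 0.05, and DESeq2 called 0 members and 1 gene. The spread between the hRas clones enters this test.

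Loss of another arm changed no member past the test, and clones differed there too. In A2058 7p-loss 0 of 7 members were called by edgeR (1 with an unadjusted p under 0.05 beside 13% of all genes, 0 by DESeq2, 0.908% of all genes called). In A2058 8q-loss 0 of 7 were called (0 with an unadjusted p under 0.05, 0 by DESeq2, 2.03% of genes). In HCT116 8q-loss 0 of 8 were called by edgeR, which called 0.14% of all genes. S100A4 and S100A10 had an unadjusted p under 0.05, as did 5.45% of all genes, and were called by DESeq2, which called 0.747%.

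The 8q-loss clones of HCT116 were unlike each other in several members. S100A10 was at 126 and 103 CPM in WT, 304 and 259 CPM in clone 1 and 223 and 221 CPM in clone 2, so both clones lay above WT (log2 fold change 1.14, SE 0.273, adjusted p = 0.24, edgeR). S100A4 was at 97.3 and 80.9 CPM in WT, 242 and 214 CPM in clone 1 and 164 and 153 CPM in clone 2 (1.12, SE 0.292, adjusted p = 0.356, edgeR). S100A14 was at 2.47 and 2.45 CPM in WT, 29.0 and 27.8 CPM in clone 1 and 1.25 and 0.175 CPM in clone 2, which lie on opposite sides of WT. S100A11 was at 281 and 172 CPM in WT, 212 and 210 CPM in clone 1 and 94.3 and 87.9 CPM in clone 2. Simple epithelium markers summed to 2779 and 2895 CPM in clone 2, 7755 and 7354 CPM in clone 1 and 6842 and 4640 CPM in WT, and their part was not tested.

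Of the other 7 S100 genes of 1q21, few were expressed. In A2058, where 49.6% of all genes were called, 2 were tested and both changed: S100A1 fell by 3.62 log2 units (SE 0.257, adjusted p = 1.75e-06, edgeR), from 29.0 to 2.37 CPM, and S100A3 rose as given above. S100A1 overlaps S100A13 on the opposite strand. Of the 2 or 3 tested in each of AGS, A2780, MCF10A and hRas MCF10A 1q-loss, edgeR called none, beside 7.55%, 11.8%, 2.04% and 0.214% of all genes. S100B, the melanocyte and glial member on chromosome 21, was lower in A2058 1q-loss, at a log2 fold change of -3.53 (adjusted p = 2.25e-05, edgeR), from 79.1 to 6.95 CPM.

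Genes lying among the members did not follow one pattern. Of the neighbours by position edgeR tested 7 in A2058 (1 higher, 4 lower, median log2 fold change -1.71), 14 in AGS (median 0.13), 7 in A2780 (-0.57), 15 in MCF10A (-0.02) and 14 in hRas MCF10A (0.28), and called none in the last 4. The 5 called in A2058 stand beside 49.6% of all genes there. Of the epidermal differentiation complex 3 genes were tested in A2058, of which FLG, the filaggrin gene of the skin barrier, was at -1.71 (adjusted p = 0.00162) and SPRR2D, a cornified envelope gene, at -2.68 (adjusted p = 0.00029), both lower by edgeR. None was called among 7 in AGS, 3 in A2780, 10 in MCF10A and 9 in hRas MCF10A.

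Among 14 partners and receptors of S100 proteins, A2058 1q-loss had 6 higher and 2 lower of 13 tested, AGS 1 higher and 2 lower of 12, A2780 2 higher and 2 lower of 12, MCF10A 1 lower of 12 and hRas MCF10A none of 13, by edgeR. Of all genes tested these comparisons called 49.6%, 7.55%, 11.8%, 2.04% and 0.214%. CACYBP, the S100A6 partner and itself a 1q gene, fell in 4 comparisons, with log2 fold changes of -0.48 in A2058, -0.61 in AGS, -0.64 in A2780 and -0.74 in MCF10A. ANXA1, which S100A11 binds, rose by 1.63 in A2058 and 5.14 in A2780, and was also higher in A2780 TK+ against WT (2.03), which keep the 1q gain. FGF1, which S100A13 helps to export, rose by 1.503 in A2058 and 2.76 in AGS.

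AHNAK, a scaffold bound by the S100A10 and annexin A2 complex, rose by 0.74 in A2058 and 0.76 in A2780. ALCAM, an adhesion molecule described as an S100 receptor, rose by 1.24 in A2058 and was lower in AGS (-1.31) and A2780 (-2.95), and it was also lower in A2780 TK+ against WT (-4.12) and higher in A2058 8q-loss (0.57). IL1A, singled out after its values were seen, was at 0.149 CPM in A2058 WT and 23.5 CPM in A2058 1q-loss. It is counted among the higher partners above, but it was tested only through the 1q-loss libraries, where it is high. Its p is therefore not read. The hRas comparisons called none of these partners.

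Likeness was taken on mean log2 CPM over the 16 groups, for every member but S100A8, which was tested in too few lines. The most alike protein-coding gene was found among 13052 genes. For S100A2 it was the desmosomal cadherin gene DSC3 (Pearson r 0.986), for S100A14 FAM83B (0.989), for S100A16 TAGLN2, a 1q gene (0.985), for S100A10 GPRC5A (0.993) and for S100A11 KLF4, an epithelial transcription factor gene (0.987). For S100A6 it was SSH3 (0.995), for S100A9 the bradykinin receptor gene BDKRB2 (0.963), for S100A4 LRRC45 (0.921) and for S100A13 the carbonic anhydrase gene CA2 (0.892). The 16 groups come from 5 lines, so these r values mostly describe the order of the lines, and groups of 1 line are not independent points.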

How the data were processed

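Counts of reads per gene were deposited by the authors for each of the 62 libraries. Per the submitters' processing notes, reads were aligned with HISAT2 2.0.5 to hg38 and counted with featureCounts 1.5.0-p3. The A2780 tables carry GRCh37 coordinates all the same, and the strand setting is not given in the sources used here. No 2 libraries of the same line were identical or agreed within sampling noise. The tables held no rows without a gene.

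From the counts, each comparison was fitted over all genes with edgeR 4.0.16 in R 4.3.3 (filterByExpr with a minimum count of 10 and total of 15, TMM scaling, quasi-likelihood F-test, Benjamini-Hochberg over all genes tested, adjusted p under 0.05). Only libraries of the groups compared entered a fit; the interaction used all 20 MCF10A libraries. The test against the arm set the median fitted log2 fold change of the tested 1q genes as an offset and was adjusted over those genes. CPM used TMM factors within each line, and differences of single clones used log2 CPM with a prior count of 2. The scripts were tested on simulated data. DESeq2 1.42.0, other scalings and filters, summed clones, a replicate block and left-out libraries were alternatives.

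All 10 members were named, with library values for those called at least once. List genes were named when 2 or more 1q-loss comparisons called them, or an hRas comparison did. S100A1, S100A3, S100B, S100P, FLG, SPRR2D and IL1A fall outside that rule and were chosen after their values were seen. The members, lists and rules were chosen with earlier results of these data known.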

Additional observations from a re-analysis of the deposited data

Results flagged for a closer look

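S100A4 in the AGS 1q-loss clones had 1 library far from the others. Clone 11 was at 18.8 CPM and the next clone at 76.6 CPM, so the gap took up 0.737 of the range of the 5 clones, above Dixon's 95% critical value. Of 73 groups of libraries examined in this way for the 10 members, 1 had such a library, and chance gives about 1 in 20. Clone 11 is also the only AGS clone made with the CO version, which cannot be told apart from the clone itself.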

How the results depend on the processing

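Of 299 alternatives to 21 counts of members, 261 kept the count within 1.5 times, and of 1169 alternatives to 62 log2 fold changes of single members, 1055 kept direction and call. Direction turned in 71, in 0 of which the member passed the test. The cause was not tested in any of these. In AGS the count called was 0 with TK+ controls only, in a fit that called 167 of 15572 genes. With single libraries left out it was 0 to 2, and the count unlike the arm was 0 to 2. In A2780 the count unlike the arm was 0 to 2 with libraries or clones left out. In MCF10A the count called was 2 with DESeq2 and 2 with TMM over genes outside 1q, in fits that called 567 and 328 of 15666 genes. It was 0 with clones summed (294 of 16704 genes) and 0 to 2 with clones or their libraries left out.

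For hRas in WT cells the count was 2 without a filter, in a fit that called 633 of 25466 genes. It was also 2 with the replicate block (S100A2, edgeR adjusted p = 1.58e-05, and S100A4, 0.017), which called 711 of 14646 genes. For hRas in 1q-loss cells it was 3 with DESeq2, which called 5.62% of all genes, and 0 to 4 with left-out libraries or clones. For A2780 TK+ it was 1 without a filter, 1 with the replicate block and 0 to 2 with left-out libraries, for A2058 8q-loss 0 to 1, and for HCT116 8q-loss 2 with DESeq2, 1 without a filter and 0 to 1 with left-out libraries. Same-numbered libraries were not shown to pair, as correlations of their deviations were mixed: they ran from 0.0918 to 0.165 in MCF10A 1q-loss, -0.178 to 0.317 in A2780, 0.154 in A2780 TK+ and -0.0201 to -0.00315 in hRas 1q-loss. In MCF10A 1q-loss the replicate block took S100A9 to -1.31 (adjusted p = 0.0505, edgeR) and S100A16 to -0.39 (0.0371). With the replicate block A2058 1q-loss had 3 members called (S100A9 at an adjusted p of 0.0538), and S100A2 turned to 0.0236, S100A6 to 0.31 and S100A10 to 0.17. In A2780, WT controls alone turned S100A2 to -0.21 and S100A6 to -0.10, and TK+ controls alone S100A4 to 0.0236 and S100A16 to 0.40.

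Leaving out libraries or clones turned members that had not passed. In A2058 S100A6 ran from -0.42 to 0.25, S100A10 from -0.13 to 0.0838 and S100A11 from -0.0559 to 0.15, and in AGS S100A9 from -1.74 to 0.14. In A2780 the ranges were -0.0434 to 0.36 (S100A2), -0.44 to 0.15 (S100A4), -0.27 to 0.48 (S100A6), -0.0297 to 0.21 (S100A13) and -0.81 to 0.38 (S100A16). In MCF10A they were -0.15 to 0.0845 (S100A2), -0.16 to 0.0890 (S100A6), -1.47 to 0.40 (S100A8) and -0.21 to 0.0193 (S100A13). In hRas 1q-loss they were -0.35 to 0.25 (S100A2), -0.63 to 0.61 (S100A4), -1.20 to 0.43 (S100A8), -0.0233 to 0.24 (S100A10) and -0.0889 to 0.0569 (S100A11). For hRas in WT they were -1.03 to 0.90 (S100A8), -0.12 to 0.15 (S100A10), -0.15 to 0.00033 (S100A11), -0.35 to 0.0659 (S100A14) and -0.0703 to 0.12 (S100A16), and for hRas in 1q-loss -0.0387 to 0.18 (S100A16). Members with few reads, such as S100A8 in MCF10A and S100A16 in A2780, carry the widest counting error.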

Other observations

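S100P, an S100 gene on chromosome 4, was tested in MCF10A and AGS and passed in neither. Its log2 fold change with 1q loss was -1.92 in MCF10A (adjusted p = 0.0951), -1.29 in hRas MCF10A (adjusted p = 0.416) and -1.35 in AGS (adjusted p = 0.144), all by edgeR. S100A1 was at -1.27 in AGS 1q-loss (adjusted p = 0.091, edgeR), in the direction of its fall in A2058.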
